A study of Mus musculus with 7 samples.

Results

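The genes described here handle iron in the intestinal wall. They are the 10 listed genes Slc40a1, Slc11a2, Cybrd1, Heph, Tfrc, Fth1, Ftl1, Lcn2, Ltf and Hamp, of 19938 genes measured, each represented by its probe set with a single symbol and the highest mean over the arrays. All 10 were found, and each had 1 such probe set. RNA came from intestinal samples of Atg4b knockout (KO) mice and wild-type (WT) controls on a C57Bl6/129Sv background, all aged 3 months. Atg4b is a protease that prepares LC3-type proteins for autophagosome formation. The groups were ileum of control WT mice (1 array), ileum of control KO mice (1), colon of control WT mice (1), colon of control KO mice (1), colon of WT mice given dextran sulfate sodium, DSS (1), and colon of KO mice given DSS (2). DSS is a chemical that injures the colonic lining and causes colitis. It was given by mouth for 7 days and water followed for 3 days. The design compares the genotypes in chemically induced colitis. The labels do not say whether ileum and colon came from the same mice, and most groups hold 1 array. The p-values below therefore reflect no more than how far these arrays scatter, part of which may be technical.

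In absorptive cells, Cybrd1, a ferric reductase of the brush border, reduces dietary iron, and Slc11a2 (DMT1) carries it across the apical membrane. Iron is stored in ferritin, a shell of Fth1 and Ftl1 subunits, or leaves through the basolateral exporter Slc40a1 (ferroportin), with hephaestin (Heph) oxidising it for transferrin. Hepcidin, the product of Hamp, is made mainly by the liver and causes ferroportin to be degraded. The transferrin receptor Tfrc brings iron into dividing cells from the blood side. In inflamed mucosa, lipocalin 2 (Lcn2) captures bacterial siderophores, and lactoferrin (Ltf), a protein of neutrophil granules and secretions, binds free iron. Iron regulatory proteins also control several of these genes after transcription, through translation or transcript stability, and an array reads transcript level alone.

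Promoter sequences are shown for 3 members. Lcn2 and Ltf are shown because they stood higher in DSS colon, and Hamp because its signal remained low. The sequences are the 250 bases before the RefSeq start site on GRCm38.p6, 5′ to 3′ along the gene. Lcn2 is given from chr2:32387740-32387989 (minus strand), Ltf from chr9:111019042-111019291 (plus strand) and Hamp from chr7:30944030-30944279 (minus strand). Capitals mark matches, on either strand, to the C/EBP motif TTGCNNAA in Lcn2 and Ltf, and in Hamp to the STAT motif TTCNNNGAA and the BMP response motif GGCGCC.
Lcn2: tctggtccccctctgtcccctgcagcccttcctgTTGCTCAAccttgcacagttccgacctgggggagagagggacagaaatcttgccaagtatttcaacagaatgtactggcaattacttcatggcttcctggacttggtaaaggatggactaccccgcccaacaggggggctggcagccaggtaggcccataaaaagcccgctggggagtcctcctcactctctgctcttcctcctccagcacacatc
Ltf: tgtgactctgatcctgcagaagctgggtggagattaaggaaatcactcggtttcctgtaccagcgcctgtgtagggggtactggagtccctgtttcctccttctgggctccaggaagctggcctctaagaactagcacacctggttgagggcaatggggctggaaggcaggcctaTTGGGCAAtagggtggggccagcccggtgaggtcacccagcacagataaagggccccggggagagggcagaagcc
Hamp: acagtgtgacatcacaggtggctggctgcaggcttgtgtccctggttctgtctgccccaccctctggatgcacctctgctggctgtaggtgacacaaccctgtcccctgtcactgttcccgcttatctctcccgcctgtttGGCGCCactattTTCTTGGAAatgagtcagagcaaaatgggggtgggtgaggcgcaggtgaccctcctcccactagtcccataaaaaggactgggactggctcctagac
RefSeq promoter entries were matched for 7 of the 10 members. The C/EBP motif lay at -216 to -209 in Lcn2 and at -75 to -68 in Ltf, and 9.56% of all 32851 promoter windows of this length held it. The STAT motif lay at -97 to -89 in Hamp (7.02% of windows) and the BMP response motif at -109 to -104 (9.59%). Neither STAT nor the NF-kappaB consensus (3.9% of windows) matched in the printed windows of Lcn2 and Ltf. Among the other members, the C/EBP motif also matched at 2 places before a further start site of Fth1, which did not pass with DSS, the BMP response motif matched in Cybrd1 and Tfrc, and the NF-kappaB consensus in Ftl1. The printed matches do not overlap each other, and a match is a description of letters, not of binding.

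The arrays were checked against their labels. Atg4b was at 163.2 to 210.9 in the 3 WT arrays and at 41.8 to 43.6 in the 4 KO arrays, in the linear intensity units of the deposited table. The disaccharidase Sis, made by enterocytes of the small intestine, was at 6712 and 9595 in ileum and at 23.0 to 28.2 in the 5 colon arrays. Xist, the RNA of the inactive X chromosome, ranged from 36.6 to 45.8 without DSS (4 arrays) and from 4579 to 6003 with DSS (3 arrays), and Y-linked Eif2s3y showed the reverse. DSS and this sex pattern therefore cannot be told apart in any DSS comparison below. The labels name WT DSS and KO control mice as male and the others as female, so the markers went against the label in the 3 WT arrays. Of the small-intestinal enterocyte markers 9 of 10 were called higher in ileum than in colon, and of the colonocyte markers 8 of 9 were called lower. The median intensity of all probe sets was 121.4 to 126.45 per array, and the number of arrays limits the precision.

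**Figure D1:**
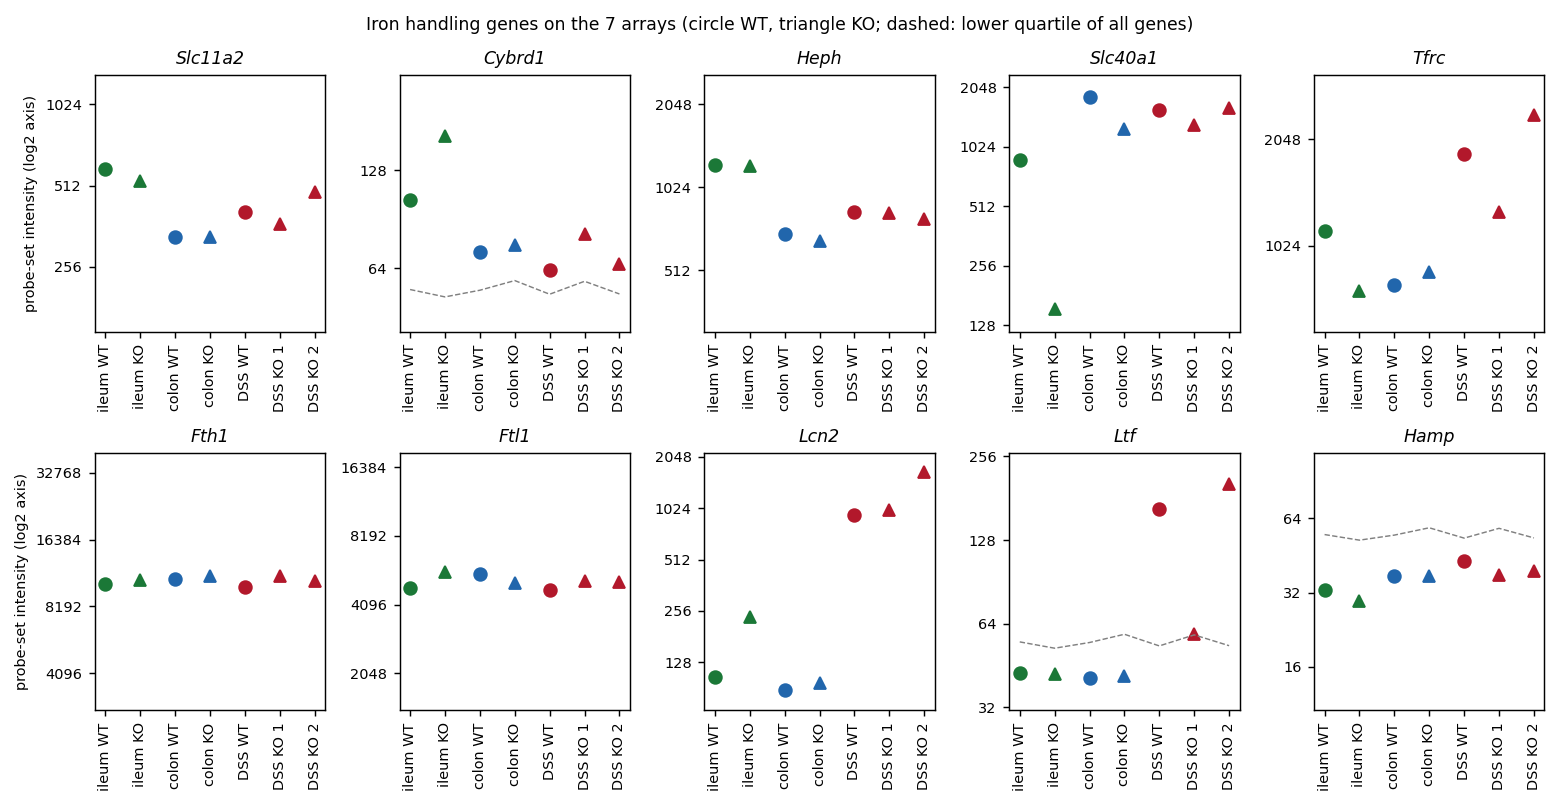
Probe-set intensity (log2 axis, 1 panel per gene, with its own range) of the 10 iron handling genes on the 7 arrays, with each array's lower quartile over all genes as a dashed line where it falls inside the panel; circles are WT and triangles KO. Lcn2 rose from 87.4 and 96.6 in control colon to between 939.5 and 1664 in DSS colon, Slc40a1 was lowest in KO ileum at 154.5, and Fth1 spanned 10062 to 11232.

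Of the genes that withhold iron from bacteria, Lcn2 rose in DSS colon. Its intensity was 87.4 and 96.6 in the control colons of WT and KO, 939.5 in WT DSS colon, and 1001 and 1664 in the KO DSS replicates 1 and 2. All 3 DSS arrays lay far above both control colons, and the ileum arrays, at 105.2 in WT and 235.4 in KO, lay between them. The DSS minus control difference was 3.56 ± 0.28 log2 units (SE of the fit, 3 against 2 arrays), 11.8-fold, with an adjusted p of 0.00208 in limma. By size this was rank 33 of 19938 genes. The rise was 10.7-fold from control to DSS in WT and 10.4-fold and 17.2-fold in KO replicates 1 and 2. Lcn2 was 1 of 10 members called higher and none was lower, while 7.2% of all genes were called higher and 3.43% lower. Leaving out the KO control colon gave 3.23 and an adjusted p of 0.0541, above the threshold. The difference was 3.23 to 3.84 over the 7 fits that each left out 1 array.

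Ltf was dim except in DSS colon. It was at 42.5 and 42.1 in WT and KO ileum and at 40.7 and 41.4 in WT and KO control colon, all dimmer than the lower quartile of genes there, where a fold may be understated. In DSS colon it was at 165.2 in WT, at 58.7 in KO replicate 1 and at 203.0 in KO replicate 2. The 3 DSS arrays lay above the control arrays, but KO replicate 1 lay close to them. The difference of 1.65 ± 0.49 did not pass (adjusted p = 0.0856 in limma). Without KO replicate 1 it was 2.16. That fit takes its error from the gaps between WT and KO arrays. In ileum and control colon, where Ltf was dim, these gaps were -0.01 and 0.02. The fit holds no spread between the KO DSS replicates. Between the KO DSS replicates Ltf differed by 1.79 log2 units, rank 38 by size among all genes in that pair.

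Neutrophil markers were also higher in DSS colon. The mean log2 intensity of 11 neutrophil genes was 6.03 and 6.16 in the control colons of WT and KO, 7.17 in WT DSS colon, and 7.04 and 7.34 in KO DSS replicates 1 and 2. The calprotectin subunit S100a9 rose by 2.61 ± 0.28 (adjusted p = 0.00457 in limma) and the chemokine receptor Cxcr2 by 2.05 ± 0.25 (adjusted p = 0.00643). In all, 6 of the 11 rose, and Mmp8, a collagenase of the granules that also hold lactoferrin, was among them at 1.61 ± 0.36. Cxcr2 and Mmp8 were below the lower quartile in both control colons, and Mmp8 in KO DSS replicate 1 too. The size of their rise is therefore uncertain. The granule protein genes Ngp (0.49 ± 0.19), Camp (-0.34 ± 0.17), Mpo (-0.09 ± 0.15) and Elane (0.04 ± 0.11) did not pass. Ngp was below the lower quartile in all but KO DSS replicate 2. Of 9 macrophage markers 3 rose (Cd68, Itgam and Tyrobp), and their mean was 6.96 and 7.09 in control colon and 7.48 to 7.66 in DSS colon. Epithelial markers, 10 genes with 1 called higher (Krt20), had a mean of 11.91 to 12.02 in control colon and 12.13 to 12.17 in DSS colon. Of 9 colonocyte markers 4 fell (Aqp8, Slc26a3, Slc26a2 and Car2) and 1 rose (Aqp4), with a median difference of -0.92. Their mean was 12.60 and 12.55 in the control colons of WT and KO, 12.09 in WT DSS colon, and 11.89 and 11.75 in KO DSS replicates 1 and 2. Of 12 smooth muscle markers 3 were called lower with DSS (Acta2, Des and Tpm2). All 12 had a negative difference, from -2.04 to -0.52 with a median of -1.55. Their mean was 11.18 and 11.14 in the control colons of WT and KO. It was 10.62 in KO DSS replicate 1, 9.71 in KO replicate 2 and 9.13 in WT DSS colon. The part of these cell types in the Lcn2 and Ltf values was not tested, and in such samples fewer cells of a type and less RNA per cell cannot be told apart.

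**Figure D2:**
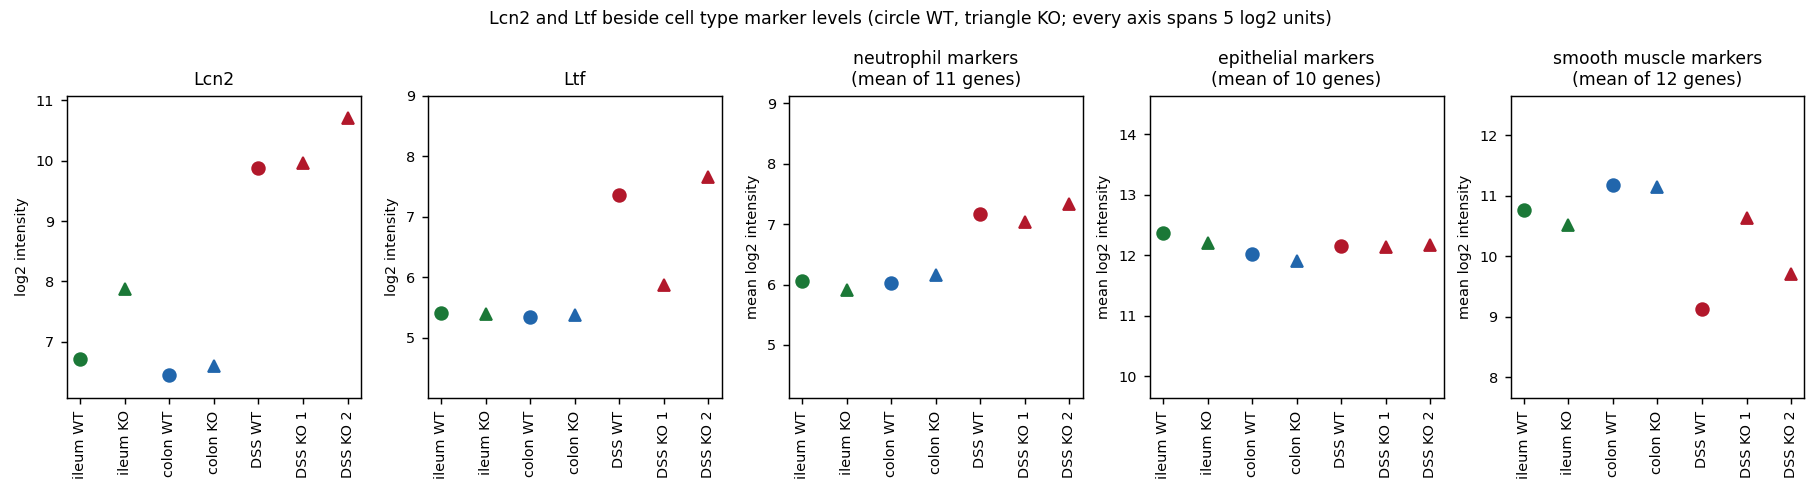
Log2 intensity of Lcn2 and Ltf and mean log2 intensity of 3 marker lists on the 7 arrays (circles WT, triangles KO, every vertical axis spanning 5 log2 units). Lcn2 and the neutrophil mean were higher in all 3 DSS arrays than in the others, Ltf was 5.88 in KO DSS replicate 1 against 7.37 and 7.67 in the other DSS arrays, and the smooth muscle mean was lowest in WT DSS colon at 9.13.

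The transferrin receptor Tfrc read 790.4 in control colon of WT and 862.4 in that of KO. It was at 1855 in WT DSS colon and at 1272 and 2399 in KO DSS replicates 1 and 2. No DSS array overlapped the control colons, although the WT ileum, at 1124, lay above the control colons and near KO replicate 1. The difference was 1.14 ± 0.28 log2 units, 2.20-fold, and did not pass (adjusted p = 0.0541 in limma). Tfrc passed without KO replicate 1 (1.35, adjusted p = 0.00924) and when dim genes were left out of the fit (adjusted p = 0.0373).

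The ferritin subunits had the narrowest ranges of the 10 members. Fth1, the heavy subunit with ferroxidase activity, ran from 10062 in WT DSS colon to 11232 in KO DSS replicate 1, a ratio of 1.12 over all 7 arrays. Ftl1, the light subunit that promotes the iron core, ran from 4739 in WT DSS colon to 5670 in KO ileum, a ratio of 1.20. The DSS minus control difference was -0.07 ± 0.10 for Fth1 (95% interval -0.30 to 0.17) and -0.09 ± 0.11 for Ftl1 (-0.37 to 0.18). Under quantile normalization the Fth1 value was 0.02. Ferritin genes have many processed pseudogenes, so a probe may read several copies. Another 4 probe sets list Ftl1 together with Mir692 genes, and their DSS differences were -0.12 to -0.03, none past the threshold. Of the 5 Ftl1 probe sets, 4 had their lowest value in WT DSS colon.

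The uptake genes of the brush border showed small differences with DSS. Slc11a2 was at 330.0 and 330.6 in WT and KO control colon and at 409.2 in WT DSS, 369.6 in KO DSS replicate 1 and 485.1 in replicate 2. These groups did not overlap, and the difference of 0.35 ± 0.14 did not pass (adjusted p = 0.186 in limma). Cybrd1 was at 71.8 and 75.4 in control colon and at 63.0, 81.3 and 65.8 in WT DSS and KO DSS replicates 1 and 2, which overlapped (-0.13 ± 0.16). On the export side, Heph was at 696.2 and 654.8 in WT and KO control colon and at 836.2, 825.1 and 787.3 in DSS colon, without overlap. Its difference of 0.28 ± 0.10 did not pass either (adjusted p = 0.120). Heph lies on the X chromosome, and DSS and the sex pattern cannot be told apart here. Slc40a1 was at 1822 and 1257 in control colon and at 1562, 1314 and 1613 in DSS colon, all within the range of the controls (0.14 ± 0.50). For 6 of the 10 members all DSS arrays exceeded both control colons, as for 22.1% of all genes, and for 0 all were lower (18.0% of all genes). The 6 include Hamp, whose values were all below the lower quartile, so that its order is not a measured difference.

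Hamp stayed low throughout. Its intensity was 29.5 to 42.8, dimmer on all 7 arrays than the lower quartile of genes, so its values give no measured level. The highest was WT DSS colon and the lowest KO ileum, and the DSS difference was 0.11 ± 0.10 (95% interval -0.13 to 0.35). Il6, the cytokine that induces hepcidin in liver through STAT3, rose by 2.32 ± 0.31 in DSS colon (adjusted p = 0.00891 in limma), from 16.3 and 16.9 in control colon to 128.6 in WT and 51.7 and 74.4 in KO replicates 1 and 2; the control values and that of KO replicate 1 were below the lower quartile, so the size is uncertain, and with 16 added before log2 it was 1.61. Stat3 rose by 0.54 ± 0.12, while Bmp6 and Bmp2, ligands of the BMP pathway that also drives hepcidin, fell by 0.83 and 1.29. The related gene Hamp2 was at 163.0 to 259.1 and did not separate DSS from control colon. Of 6 hepatocyte markers 2 were called lower (Alb and Ttr). Alb was at 43.7 to 103.2 over the 7 arrays and below the lower quartile in every DSS array, so the size of its fall is uncertain. Ttr was at a log2 intensity of 10.36 and 10.54 in WT and KO control colon. In DSS colon it was at 7.10 in WT and at 7.66 and 7.74 in KO replicates 1 and 2.

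**Figure D3:**
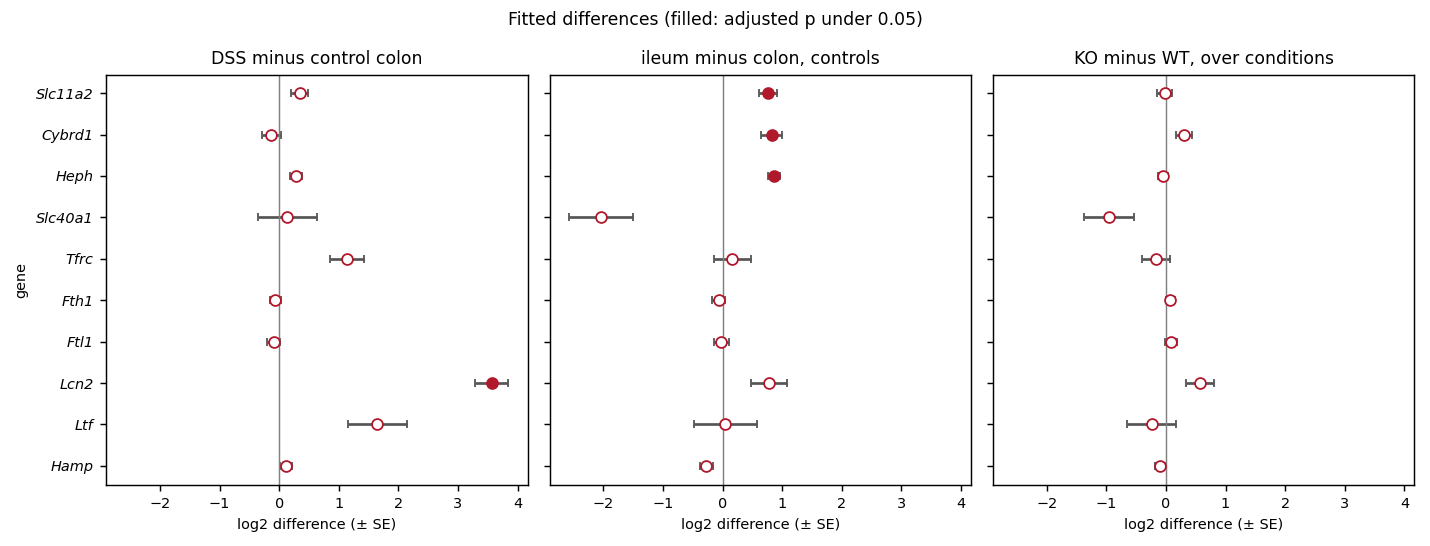
Fitted log2 differences with SE for the 10 genes in DSS against control colon, ileum against control colon, and KO against WT over conditions, on 1 shared horizontal scale. Filled points have an adjusted p under 0.05 and mark Lcn2 for DSS (3.56) and Slc11a2, Cybrd1 and Heph for ileum (0.76, 0.82 and 0.86).

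Between ileum and colon of control mice the uptake and oxidation genes were higher in ileum. Slc11a2 was at 590.5 in WT and 533.5 in KO ileum against 330.0 and 330.6 in colon, a difference of 0.76 ± 0.15 log2 units (2 against 2 arrays, adjusted p = 0.0291 in limma). Cybrd1 was at 103.9 and 163.4 against 71.8 and 75.4, a difference of 0.82 ± 0.18 (adjusted p = 0.0372). Heph was at 1232 and 1227 against 696.2 and 654.8, a difference of 0.86 ± 0.10 (adjusted p = 0.00408). In each of the 3 genes both ileum arrays lay above every control and DSS colon array. These 3 of 10 members were called higher and none lower, against 5.94% and 3.22% of all genes. The ileum and DSS comparisons share the control colon arrays.

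These calls depended on single arrays. Slc11a2 did not pass without any one of the 4 control arrays (0.68 to 0.85, adjusted p 0.127 to 0.179), nor under quantile normalization (0.63, adjusted p = 0.0690). Cybrd1 did not pass without KO ileum (0.57) or the WT DSS array (0.82, adjusted p = 0.0593), and leaving out the control colon of WT (0.99) or of KO (0.66) also ended the call. Heph did not pass without KO ileum (0.83, adjusted p = 0.0510). In a model with a term for each of the 6 groups none of the 3 passed (adjusted p 0.0551 for Heph, 0.102 for Cybrd1 and 0.146 for Slc11a2). With all probe sets tested neither Slc11a2 (adjusted p = 0.0651) nor Cybrd1 (0.0810) passed in limma. Cybrd1 did not pass with 16 added before log2 (0.0539). Labelled sex in the model gave for tissue the same fit as leaving out the WT DSS array. Of the 10 epithelial markers 3 were called higher in ileum, the brush border protein villin (Vil1) by 1.28 ± 0.10, and the mean was 12.37 in WT and 12.21 in KO ileum against 12.02 and 11.91 in control colon; their part in these differences was not tested.

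The exporter Slc40a1 ran the other way. It was at 875.9 in WT ileum and at 154.5 in KO ileum, against 1822 and 1257 in WT and KO control colon. Both ileum arrays lay below all 5 colon arrays. The ileum minus colon difference was -2.04 ± 0.54 and did not pass (adjusted p = 0.0727 in limma). It was -1.06 between the WT arrays and -3.02 between the KO arrays. Slc40a1 passed without WT ileum (-3.15, adjusted p = 0.00259), without the WT DSS array (adjusted p = 0.0438) and when dim genes were left out (adjusted p = 0.0460). The fit with labelled sex is the same as that without the WT DSS array, because labelled sex here equals the genotype by DSS term. It does not follow the Xist and Eif2s3y pattern. In the model of 6 groups Slc40a1 passed (adjusted p = 0.0205 in limma). The residual error of that model comes from the KO DSS pair alone, so the gap between WT and KO ileum is not in it. Without KO ileum the difference was -0.93.

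Of the remaining members none passed between ileum and colon. Lcn2 was 0.78 ± 0.31, with KO ileum 2.44-fold and WT ileum 1.20-fold above the colon of the same genotype. Tfrc was 0.16 ± 0.31, and its sign differed between WT (0.51) and KO (-0.18). Fth1 was -0.06 ± 0.10 and Ftl1 -0.02 ± 0.12. Ltf (0.04 ± 0.53) and Hamp (-0.27 ± 0.11) were dim in all 4 arrays. In total 5 members lay higher in both ileum arrays than in both control colons, as 25.8% of all genes did, and 3 lay lower in both (28.2%). These counts include the dim Ltf and Hamp, whose order is not a measured difference.

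None of the 10 genes passed for KO against WT over ileum, control colon and DSS colon. In limma 0.00502% of all genes passed, the only call being Atg4b itself. Without adjustment 720 genes had a p under 0.05, and Lcn2 alone of the members (0.58 ± 0.24, adjusted p = 0.989). Slc40a1 had the widest difference, -0.95 ± 0.42 (4 KO against 3 WT arrays, adjusted p = 0.989), rank 25 by size among all genes. It rested on ileum, where the KO array was at 154.5 and the WT array at 875.9, a KO minus WT difference of -2.50 and rank 9 of 19938 genes by size in that pair. In control colon the difference was -0.54, and in DSS colon the KO replicates 1 and 2 lay at -0.25 and 0.05 from the WT array. When either ileum array was left out the fitted difference was -0.29, and without the WT DSS array it was -1.52.

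Other members also differed between the ileum arrays, with no replicate to test them. Lcn2 was higher in KO ileum by 1.16 (235.4 against 105.2, rank 119) and Cybrd1 by 0.65 (163.4 against 103.9, rank 484). Tfrc was lower in KO ileum by 0.56 log2 units, 760.5 against 1124, which was rank 669. A difference over 1 log2 unit in either direction was seen in 0.888% of all genes in this pair. In control colon no member differed by more than 0.54, that of Slc40a1, and the next was Lcn2 at 0.14. Heph, at 1227 in KO and 1232 in WT ileum, and Fth1, at 10729 and 10390, were close to equal. Marker means differed between the WT and KO ileum arrays too. They were 9.33 and 8.75 for colonocyte markers, 11.06 and 11.44 for small-intestinal enterocyte markers, and 7.18 and 7.54 for macrophage markers. The part of cell content in the ileum differences of Slc40a1 and the other members was not tested.

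Within DSS colon 0 members passed for KO against WT, as did 0% of all genes (776 genes and 0 members at an unadjusted p under 0.05, in limma). Lcn2 was 0.46 ± 0.39 higher in KO, 0.82 without KO replicate 1 and 0.09 without KO replicate 2, and did not pass in any of these fits. Ltf was -0.60 ± 0.65, with the KO replicates on either side of the WT array for Ltf (58.7 and 203.0 against 165.2). Without KO replicate 2 the Ltf difference was -1.49, and without KO replicate 1 it was 0.30. Each of these fits sets 1 KO against 1 WT array in DSS colon. Their error comes from the control arrays, where Ltf was dim, and holds no spread among DSS arrays. Tfrc likewise had 1 KO array below and 1 above the WT array. The genotype by DSS interaction, which asks whether the KO minus WT difference changed with DSS, passed for 0 members and 0% of all genes (639 genes and 0 members at an unadjusted p under 0.05). Its largest value among the members was 1.42 ± 0.68 for Slc40a1, and with colon arrays alone it was 0.43. Without KO replicate 2 the Ltf interaction was -1.50, again with no spread among DSS arrays in its error.

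The median difference over the 10 members was 0.21 for DSS, 0.10 for ileum against colon and -0.04 for KO against WT, beside -0.01, -0.02 and -0.01 over all genes.

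Other genes of iron and heme handling were taken from 7 lists, of which 69 of 75 genes were measured. With DSS 10 rose and 4 fell, beside 10.6% of all genes called in either direction. Among iron transport genes 3 of 13 rose. They were Steap4, a ferrireductase induced by inflammatory cytokines (2.80 ± 0.40, adjusted p = 0.0116 in limma), the plasma ferroxidase ceruloplasmin Cp (1.29 ± 0.20) and the mitochondrial iron importer Slc25a37 (0.60 ± 0.14). Steap4 was at a log2 intensity of 7.05 and 6.94 in WT and KO control colon, 8.83 in WT DSS, and 10.41 and 10.39 in the KO DSS replicates. Both KO DSS arrays lay above the WT DSS array, a difference of 1.57 ± 0.15 that did not pass (adjusted p = 0.234). The ferritin receptor Ncoa4, which delivers ferritin to autophagosomes, and the other 3 measured genes of ferritin handling did not pass.

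Of the heme genes, 1 of 8 in synthesis and 3 of 13 in breakdown and transport passed, and the median differences of these lists were 0.04 and -0.07. Heme oxygenase Hmox1, which breaks heme down and frees its iron, rose by 1.63 ± 0.12 (adjusted p = 0.00198 in limma), from 125.9 and 108.8 in WT and KO control colon to 423.6 in WT and 303.5 and 340.5 in KO DSS replicates 1 and 2. It passed under all 17 alternatives, although colon arrays alone and leaving out either ileum array are the same fit for DSS. Hmox1 differences were 1.52 to 1.70 over the 7 fits that each left out 1 array. The hemoglobin scavenger haptoglobin Hp rose by 2.21 ± 0.44 and Slc46a1, a folate transporter that also carries heme, fell by 1.20. Hp was below the lower quartile in KO control colon, so the size of its rise is uncertain. Without the KO control colon the Hp difference was 1.38 and did not pass, and Hp passed in 2 of the 7 fits that left out 1 array. Alas1, the first enzyme of heme synthesis, rose by 1.12 ± 0.17. Of the 8 iron regulatory and hypoxia factors, Fbxl5, the iron sensor that marks Ireb2 for degradation, rose by 0.78 ± 0.12. In the hepcidin and iron sensing list 2 of 15 rose and 3 fell, the genes named above and the BMP co-receptor Neo1 (-0.54 ± 0.12). Of the 8 genes of iron-sulfur cluster assembly Glrx5 rose by 0.49 ± 0.10. Apart from Hmox1, the number of the 17 alternatives under which a gene passed differed widely. It was 15 for Steap4 and Il6, 14 for Alas1, and 13 for Cp, Bmp6, Bmp2 and Fbxl5. It was 9 for Hp and Slc46a1, 7 for Neo1 and Stat3, and 5 for Slc25a37 and Glrx5. The count of 14 called genes was 1 when either control colon was left out, 5 without the WT DSS array, 9 without KO DSS replicate 2, 21 without KO DSS replicate 1 and 8 when either ileum array was left out.

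**Figure D4:**
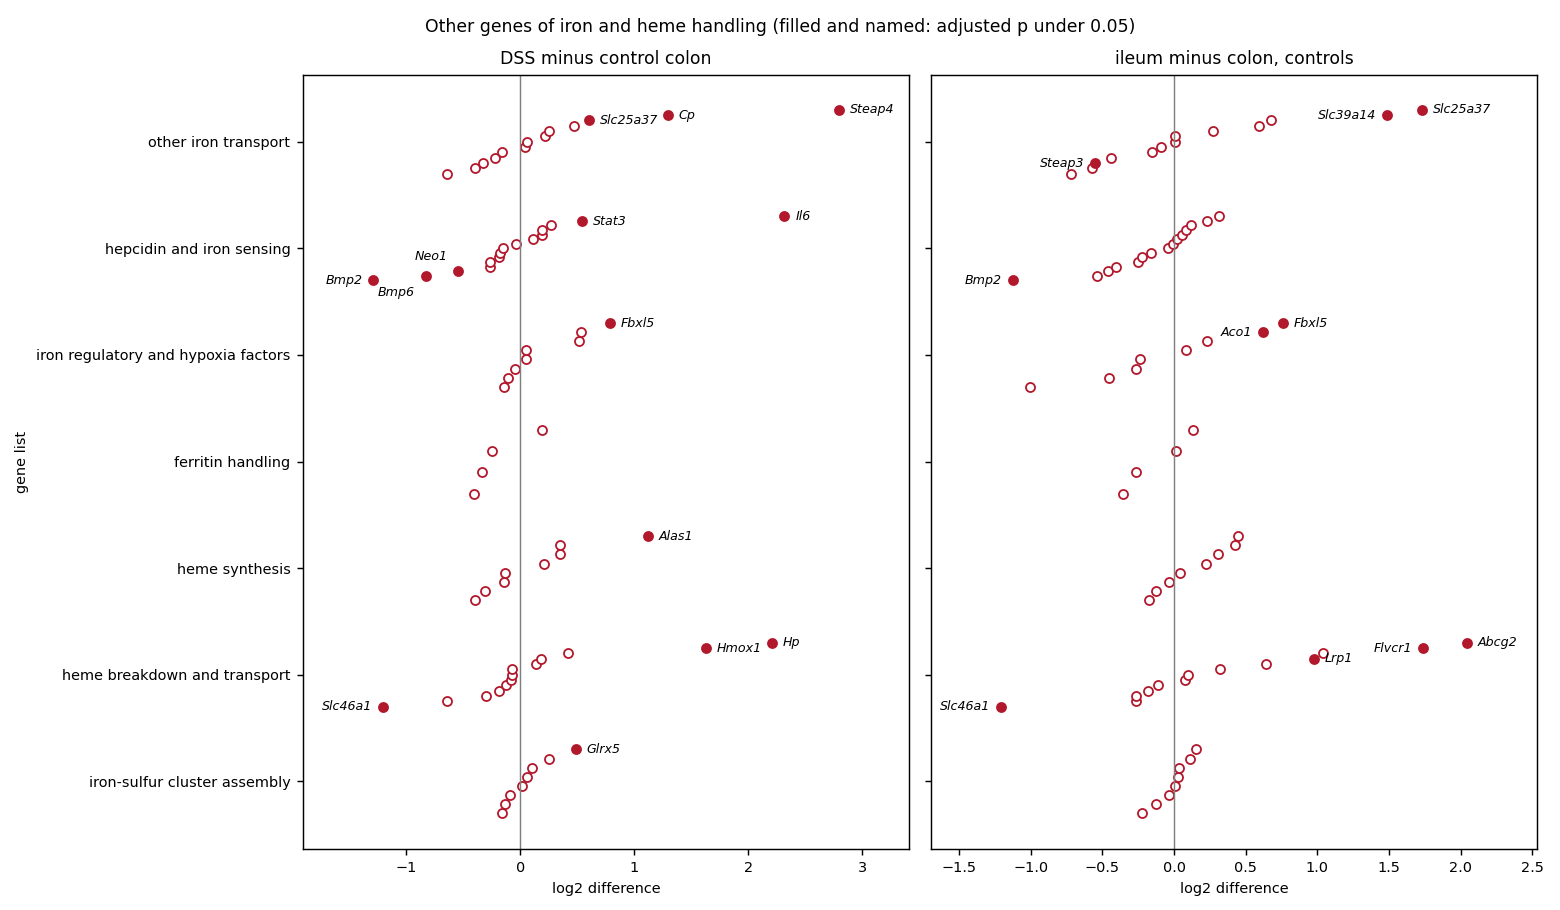
Log2 differences of 69 other genes of iron and heme handling, by list, in DSS against control colon and in ileum against control colon; filled, named points have an adjusted p under 0.05. Steap4 lay at 2.80 and Hp at 2.21 with DSS. Il6 at 2.32 rests on control values below the lower quartile, and so does Hp in KO control colon. Abcg2 (2.04), Flvcr1 (1.74) and Slc25a37 (1.73) were higher in ileum.

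Between ileum and colon 7 of the 69 genes were higher and 3 lower in ileum, beside 9.16% of all genes called in either direction. The efflux pump Abcg2, which exports porphyrins, was higher by 2.04 ± 0.20 (adjusted p = 0.00192 in limma), the heme exporter Flvcr1 by 1.74 ± 0.16, Slc25a37 by 1.73 ± 0.15 and the zinc and iron importer Slc39a14 by 1.49 ± 0.17. Fbxl5 (0.76 ± 0.13) and the iron regulatory protein Aco1 (0.62 ± 0.14) were higher too, and so was the hemopexin receptor Lrp1 (0.97 ± 0.17). Slc46a1 (-1.21 ± 0.27), Bmp2 (-1.13 ± 0.22) and the ferrireductase Steap3 (-0.55 ± 0.11) were lower. Abcg2, Flvcr1 and Slc25a37 passed under all 16 alternatives run, of which labelled sex and leaving out the WT DSS array are the same fit. Slc39a14 passed under 14, Fbxl5 under 12, Lrp1 under 11, Bmp2 under 10, Steap3 and Slc46a1 under 7 and Aco1 under 6. The count of 10 was 5 without WT ileum, 4 without KO ileum, and 5 and 3 when the control colon of WT and of KO was left out. For KO against WT 0 of the 69 passed over conditions (4 at an unadjusted p under 0.05), as in DSS colon (4) and in the interaction (3).

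The genes with the most similar pattern were found by Pearson correlation over the 7 arrays, for the 5 members whose log2 range was at least 1. Groups of arrays share tissue and treatment, so high values are common and are given as a description. Lcn2 was most like the interferon-induced protease Usp18 (r = 0.997) and the guanylate-binding proteins Gbp3 and Gbp9 (both 0.996). Ltf was most like Notch4 (0.978), the neuropeptide gene Tac1 (0.976) and the glycolytic enzyme Pgk1 (0.975). Tfrc was most like the DNA repair gene Fanca (0.981), Pgk1 (0.979) and the endoplasmic reticulum oxidase Ero1a (0.976). Slc40a1 was most like the acute-phase gene Saa1 (0.991), Endod1 (0.991) and the efflux pump Abcc3 (0.981), each also lowest in KO ileum. Cybrd1 was most like Myrf (0.993), the apolipoprotein Apoa4 (0.983) and the methionine sulfoxide reductase Msra (0.981).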

How the data were processed

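Total RNA from ileum and colon was labelled with biotin for Affymetrix arrays, per the labels, with 1 array for each sample. The authors deposited 1 linear intensity per probe set and array. Their summarisation and normalization are not given in the sources used here; array medians lie close together, and log2 of each value was taken here. An unstated step that equalises arrays would remove a shift shared by all genes. Of 35512 probe sets, the platform annotation gives 21789 a single symbol, 1621 several and 12102 none here.

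Models were fitted with limma 3.58.1 in R 4.3.3 on all 19938 genes, with Benjamini-Hochberg adjustment and a threshold of 0.05. The first held condition and genotype (3 residual degrees of freedom). Its error comes from how far the genotype effect varies over conditions and from the KO DSS pair. The second added the genotype by DSS term (2 residual degrees of freedom). Scripts were tested on simulated data. The members, lists and tests were chosen with earlier results of these data known. All members are named. The plan was to name up to 4 called genes per list and comparison, but all called genes of the other iron lists are named. Erythroid markers were not used, as 2 of 10 had a probe set with a single symbol; macrophage, hepatocyte, ileal enterocyte and colonocyte lists served as checks. Alternatives covered normalization, centring, dim genes, an added constant, probe sets, the variance model, labelled sex, colon alone, a model of 6 groups and leaving out each array. They are not all separate fits. For every comparison but tissue, colon alone equals leaving out either ileum array. Labelled sex equals the genotype by DSS term, so for tissue it equals leaving out the WT DSS array. Figures were drawn with matplotlib 3.10.9.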

Additional observations from a re-analysis of the deposited data

Results flagged for a closer look

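In 4 cases the WT and KO effects of a member had opposite signs. Slc40a1 was lower in DSS than in control colon in WT (-0.22) and higher in both KO replicates (0.06 and 0.36), so that the KO minus WT difference of the DSS effect was 0.43 log2 units; with colon arrays alone this difference did not pass in limma (adjusted p = 0.996). Ftl1 showed the same signs at a smaller size, with -0.23 in WT and 0.04 and 0.01 in KO, a difference of 0.25 (adjusted p = 0.996 in limma). The other Ftl1 probe sets, which list several symbols, did not show this pattern with DSS. In each of them KO DSS replicate 2 lay below the KO control colon. Between ileum and colon Tfrc was higher in ileum in WT (0.51) and lower in KO (-0.18), a difference of -0.69. Ftl1 was lower in ileum in WT (-0.19) and higher in KO (0.15), a difference of 0.35. The last pair rests on 1 array per genotype and tissue and was not tested.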

How the results depend on the processing

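Over 50 member values and their alternatives, 717 of 795 kept their direction and side of the threshold, 50 reversed, 18 were no longer called and 10 became called. This share overstates stability, as some alternatives are the same fit. The mean of probe sets also left each member's value unchanged, because each has 1 probe set. With 7 arrays and 1 per group in most groups, single arrays decide many calls, and a fit without an array assumes that a lone array varies like the others. The DSS comparison called 2120 genes, 297 in the 6-group model and 183 to 3549 with 1 array left out. Its 1436 higher and 684 lower calls were 1200 and 1112 under quantile normalization and 1159 and 961 with arrays centred on their medians. The tissue comparison called 1826 genes, 764 in the 6-group model and 660 to 2418 with 1 array left out, and its 1184 higher and 642 lower were 1074 and 928 under quantile normalization. KO against WT called 1 gene, and 0 with all probe sets tested, with colon arrays alone and in the 6-group model (0 to 1 with 1 array left out). KO against WT in DSS colon called 0 genes, 3 with centred arrays, 2 with dim genes left out, 10 with a variance trend and robust fit, and 0 to 538 with 1 array left out. The interaction called 0, 2 with the trend and robust fit and 0 to 279 with 1 array left out. Of the other iron genes 14 were called with DSS, 8 with all probe sets tested, 8 with colon alone, 3 in the 6-group model and 1 to 21 with 1 array left out. In ileum 10 were called, 6 with all probe sets tested, 3 in the 6-group model and 3 to 15 with 1 array left out; for KO in DSS colon 1 was called with the trend and robust fit and 0 to 4 with 1 array left out, and for the interaction 0 to 3. Among members, signs turned for Slc40a1 with DSS (-0.0055 with labelled sex and -0.0055 in the 6-group model), Fth1 with DSS (0.017, quantile), Slc11a2 for KO (0.016, quantile; 0.029, colon alone) and in DSS colon (-0.017, centred), and Tfrc for KO (0.0046, colon alone). Signs of the interaction turned with colon alone for Cybrd1 (0.14), Heph (0.035), Tfrc (-0.21) and Lcn2 (0.31), and with centring for Fth1 (-0.015) and Ftl1 (-0.013). With 1 array left out, DSS differences crossed 0 for Slc40a1 (-0.13 to 0.70), Cybrd1 (-0.31 to 0.019) and Ftl1 (-0.26 to 0.038), and tissue differences for Tfrc (-0.12 to 0.45), Ftl1 (-0.17 to 0.13) and Ltf (-0.14 to 0.23). KO differences did so for Slc11a2 (-0.097 to 0.034), Tfrc (-0.33 to 0.0046) and Ltf (-0.49 to 0.10), and in DSS colon for Slc40a1 (-0.25 to 0.046), Slc11a2 (-0.15 to 0.25), Tfrc (-0.54 to 0.37) and Ltf (-1.49 to 0.30). The interaction did so for Slc11a2 (-0.075 to 0.32), Cybrd1 (-0.44 to 0.14), Heph (-0.048 to 0.035), Tfrc (-0.33 to 0.59), Ftl1 (-0.094 to 0.25), Lcn2 (-0.70 to 0.31) and Ltf (-1.50 to 0.29). The causes were not tested. Labelled sex could not be fitted beside the interaction, colon arrays alone give no tissue comparison, and no fit of KO against WT in DSS colon or of the interaction exists without the WT DSS array. No paired analysis was possible because a single group, KO DSS colon, has a replicate 2, so the groups share fewer than 2 replicate numbers to pair by. The genotype term of the first model already compares tissues and treatments within genotype.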
